A study of Mus musculus with 6 samples.

Results

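The 10 genes described here encode the core transcriptional regulators of heart muscle, namely the homeobox factor Nkx2-5, the GATA factors Gata4 and Gata6, the T-box factors Tbx5 and Tbx20, the MADS-box factors Mef2a and Mef2c, the basic helix-loop-helix factors Hand1 and Hand2, and the coactivator Myocd. They are named by gene symbol in a list drawn up with earlier results of these data known, to set them beside muscle target genes with lower values in the mutants, and are 10 of the 26191 genes in the table. All 10 passed the filter on low values and were tested. Whole hearts of mouse embryos at embryonic day 12 were compared between a control group, Mrps5 fl/fl (n = 3), and a mutant group, Mrps5 fl/fl;cTNT-Cre (n = 3). Both groups carried the floxed alleles of Mrps5, which encodes a protein of the mitochondrial ribosome, and the mutant hearts also carried a Cre transgene driven by the cardiac troponin T promoter, which is active in cardiomyocytes. Mutants and controls were littermates. Each replicate was a pool of several hearts, so the other cells of the heart, in which this promoter is not active, contributed RNA to every library.

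These factors form an interlocking network. Nkx2-5, the GATA factors and the T-box factors bind jointly at enhancers of heart muscle genes, and each is needed for normal heart formation. The MEF2 factors act with them on genes of the contractile apparatus, Myocd is a coactivator of serum response factor, and the HAND factors act in growth of the ventricles. Their targets include the sarcomere genes, the genes of calcium handling and the natriuretic peptide genes, so the regulators are set here beside a list of such target genes.

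Several of the regulators are listed as more than 1 transcript, and 2 pairs of transcripts are shown first because the values below turn on them. The sequences are those of GENCODE M21 on GRCm38, read by transcript identifier, since the table itself gives no positions. Gata4-201 and Gata4-202 lie on the minus strand of chromosome 14 and differ where exon 3 starts. Exon 3 spans chr14:63204589-63204758 in Gata4-201 and chr14:63204589-63204755 in Gata4-202, so that Gata4-201 carries 3 more bases in the coding region, shown in capitals between 30 bases on either side.
Gata4-201: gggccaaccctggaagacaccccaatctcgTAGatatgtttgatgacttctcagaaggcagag
Gata4-202: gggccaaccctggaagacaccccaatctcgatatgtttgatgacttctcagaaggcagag
The coding region is 1326 bases long in Gata4-201 and 1323 in Gata4-202, a difference of 1 codon. The annotated start of Gata4-201 is also 23 bases upstream of that of Gata4-202. The Myocd transcripts lie on the minus strand of chromosome 11, and Myocd-203 holds exon 11 (chr11:65184488-65184631, 144 bases, in capitals), which Myocd-202 lacks.
Myocd-203: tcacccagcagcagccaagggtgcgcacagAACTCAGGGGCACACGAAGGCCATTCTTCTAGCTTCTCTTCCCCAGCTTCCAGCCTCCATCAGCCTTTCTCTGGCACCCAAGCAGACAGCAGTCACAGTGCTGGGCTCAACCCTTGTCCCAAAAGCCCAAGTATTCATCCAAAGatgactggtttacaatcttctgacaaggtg
Myocd-202: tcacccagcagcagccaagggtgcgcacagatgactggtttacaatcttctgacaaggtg

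Values are FPKM, fragments scaled by transcript length and library size, summed over the transcripts of a gene. Differences are mutant minus control on the log2(FPKM + 1) scale, which makes the change of a gene with low FPKM look smaller than it is, and were tested with limma over 13260 genes. Calls are given at an unadjusted p under 0.05 and at an adjusted p under 0.05, adjusted by the method of Benjamini and Hochberg over all genes tested. The read depth of the libraries is unknown, since the table holds no counts. The values of a group are given in the order of its replicates 1, 2 and 3. Mrps5 was at 9.65, 11.4 and 10.4 FPKM in the controls and at 5.28, 7.41 and 10.4 FPKM in the mutants. The library labelled mutant replicate 3 was therefore within the control range, and values without it are given below for each regulator and for the counts of the lists. Erythroid genes held 12.0% to 13.3% of the summed FPKM of the controls, but 23.5% in mutant replicate 1, 10.8% in mutant replicate 2 and 22.0% in mutant replicate 3. Transcripts of mitochondrial DNA held 14.3% to 15.8% in the controls and less in every mutant library, at 10.66%, 14.01% and 9.002%. All 10 cardiomyocyte markers were detected, with a summed FPKM of 9298 to 11102 in controls and of 8498 to 9631 in mutants. The summed levels of the marker lists of 8 cell types overlapped between the groups. The cardiomyocyte sum includes Nppa, which was higher in the mutants (log2 difference 0.70), so its overlap does not show that the markers were level. Tnnt2, Tnni3, Myh7, Myl4, Myl7 and Ttn of that list were each lower in every mutant library than in every control library. Actc1, Myh6, Actn2 and Nppa overlapped between the groups.

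On the log2 scale, all 10 regulators had a negative difference, beside 7293 of the 13260 genes tested, and the median of the 10 was -0.22, beside -0.021 for all genes. The count of negative differences was 9 without control replicate 1 or mutant replicate 3, 8 without control replicate 3 or mutant replicate 1, 7 with the erythroid level as a covariate and 4 after the muscle target mean was subtracted, a step described below. Of the 10, 3 were lower in the mutants at an unadjusted p under 0.05, where 9.43% of all genes were, and none was higher, where 5.57% were. The 3 were Myocd, Hand2 and Hand1. Only Myocd was left at this line without mutant replicate 1 or with the erythroid level as a covariate, where 962 and 692 of the 13260 genes were lower in place of 1251. Tbx5 and Tbx20 joined the 3 when the libraries were rescaled without erythroid and mitochondrial genes, where 1519 genes were lower. Without the library labelled mutant replicate 3 the 4 at this line were Myocd, Hand1, Tbx5 and Mef2c, where 1169 genes were lower. None had an adjusted p under 0.05, a line that 11 genes, or 0.083%, passed. In 3 regulators, Myocd, Hand2 and Tbx5, every mutant value lay below every control value, as in 13.0% of all genes, and in none did every value lie above, as in 7.74%. In bulk hearts, fewer cells that express a gene and less of its RNA per cell cannot be told apart.

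**Figure D1:**
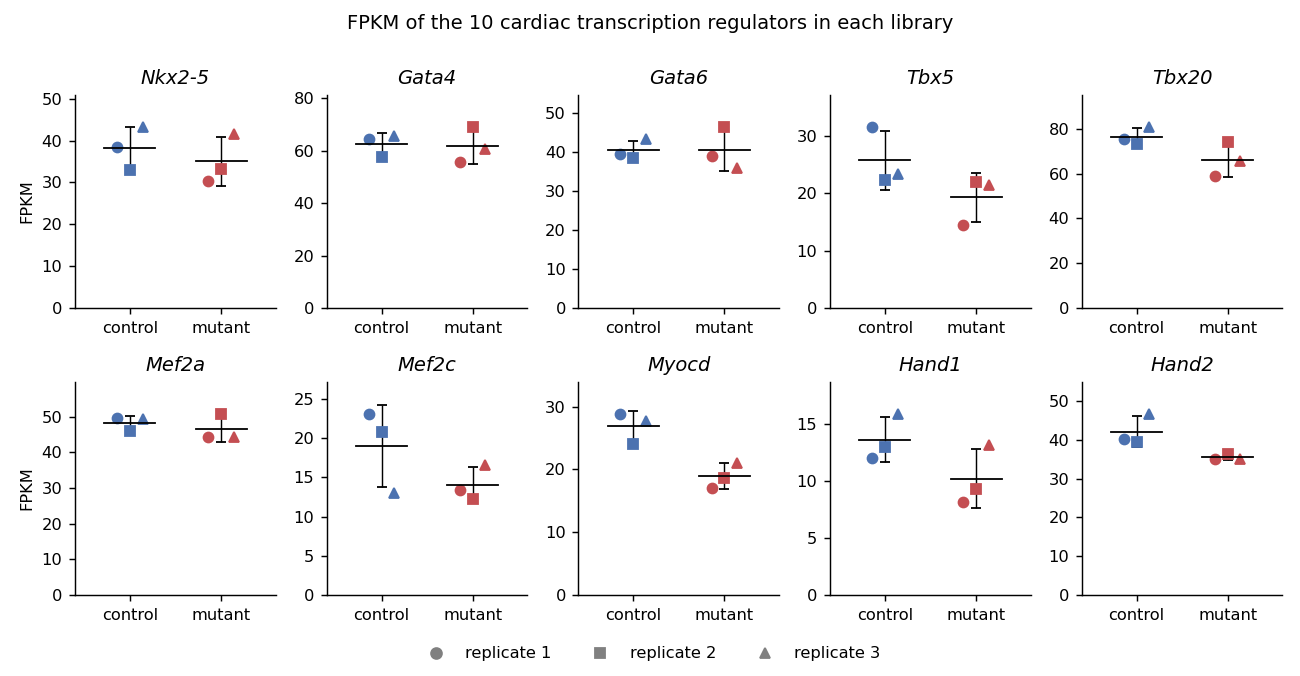
FPKM of each regulator by group, with 1 symbol per library, the group mean as a horizontal line and the SD (n = 3) as the error bar; each panel has its own axis from 0. Myocd, Tbx5 and Hand2 show no overlap between the groups, while the mutant values of Gata4, Gata6, Mef2a and Nkx2-5 lie among or around the control values.

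Myocd, the coactivator that turns on muscle genes through serum response factor, had the smallest p of the 10. Its FPKM was 28.8, 24.1 and 27.7 in the controls and 17.0, 18.7 and 21.1 in the mutants. Every mutant library was below every control library, and the mean was 26.9 ± 2.45 FPKM (SD, n = 3) in the controls against 18.9 ± 2.08 FPKM (SD, n = 3) in the mutants, a change of -29.6%. The log2 difference was -0.49 (standard error 0.11), with an unadjusted p of 0.0017 and an adjusted p of 0.139 from limma. Its unadjusted p was under 0.05 in all 17 alternative fits. Without the library labelled mutant replicate 3 the difference was -0.56 and the adjusted p 0.0459, the one setting in which a regulator passed the adjusted line. Myocd is also expressed in smooth muscle, whose 5 markers summed to 613, 647 and 701 FPKM in the controls and to 449, 525 and 639 FPKM in the mutants. Myocd had the same order as these sums among the mutants but not among the controls, where it was highest in the library with the lowest sum. The part of smooth muscle in the Myocd value was not tested.

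The HAND factors, which act in the ventricles and the outflow tract, were both lower at an unadjusted p under 0.05. Hand2 was at 40.1, 39.4 and 46.6 FPKM in the controls and at 35.0, 36.3 and 35.1 FPKM in the mutants. The groups did not overlap, the mutant values were close together, and the log2 difference was -0.23 (standard error 0.089, unadjusted p = 0.0289, adjusted p = 0.280 from limma). The unadjusted p of Hand2 was under 0.05 in 12 of 17 alternative fits, and was 0.116, 0.0646 and 0.0619 without control replicate 3, mutant replicate 1 and mutant replicate 3. Hand1, expressed mainly in the left ventricle and outflow tract, was at 12.0, 13.0 and 15.9 FPKM in the controls and at 8.20, 9.27 and 13.2 FPKM in the mutants. Mutant replicate 3 lay within the control range and the other mutant libraries below it. The log2 difference of Hand1 was -0.40 (standard error 0.17, unadjusted p = 0.0442, adjusted p = 0.319 from limma). Without the library labelled mutant replicate 3 it was -0.58, with an unadjusted p of 0.0022 and an adjusted p of 0.0755 from limma. The unadjusted p of Hand1 was under 0.05 in 8 of 17 alternative fits. It was 0.068 to 0.153 without control replicate 2, control replicate 3, mutant replicate 1 or mutant replicate 2, and the difference without mutant replicate 1 was -0.27.

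The long noncoding RNA Hand2os1 (AV026068, ENSMUSG00000100510), which is transcribed from the strand opposite to Hand2 and is known to act on Hand2 expression, was lower as well. It was at 57.8, 50.8 and 52.3 FPKM in the controls and at 38.3, 33.7 and 35.4 FPKM in the mutants. The groups lay well apart, with a log2 difference of -0.57 (standard error 0.088), an unadjusted p of 0.00017 and an adjusted p of 0.0643 from limma. The adjusted p was 0.0404 without the library labelled mutant replicate 3. Some annotated exons of Hand2os1 overlap Hand2. The libraries kept the strand, but whether the counting used it is not given in the sources used here, so reads in the overlap may have been shared.

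The T-box factors were lower in the mean but past the unadjusted line in neither case. Tbx5, which acts in the atria and the left ventricle, was at 31.6, 22.4 and 23.3 FPKM in the controls and at 14.4, 22.1 and 21.5 FPKM in the mutants. The groups did not overlap, but control replicate 2 and mutant replicate 2 were nearly equal, and the width of the gap rested on control replicate 1 and mutant replicate 1. The log2 difference was -0.40 (standard error 0.18, unadjusted p = 0.0577, adjusted p = 0.347 from limma). It was -0.25 without control replicate 1 and -0.21 without mutant replicate 1, and was past the unadjusted line without control replicate 2, mutant replicate 2 or mutant replicate 3, at -0.49 to -0.50. Tbx20, needed for growth of the chambers, was at 75.3, 73.4 and 80.7 FPKM in the controls and at 58.9, 73.9 and 65.8 FPKM in the mutants. Mutant replicate 2 lay within the control range. The log2 difference was -0.21 (standard error 0.10, unadjusted p = 0.0688, adjusted p = 0.372 from limma). It was -0.29 without mutant replicate 2 (unadjusted p = 0.0172) and -0.13 without mutant replicate 1, and stayed at -0.21 without the library labelled mutant replicate 3.

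The MEF2 factors differed from one another in spread. Mef2c, the member required for formation of the right ventricle, was at 23.1, 20.8 and 13.1 FPKM in the controls and at 13.4, 12.2 and 16.5 FPKM in the mutants. Control replicate 3 lay among the mutant values, and the log2 difference was -0.38 (standard error 0.20, unadjusted p = 0.0912, adjusted p = 0.411 from limma). Without control replicate 3 it was -0.62, with an unadjusted p of 0.0028, and without control replicate 1 it was -0.23, with an unadjusted p of 0.299. It was past the unadjusted line without mutant replicate 3 too, at -0.50. Mef2a was at 49.6, 46.1 and 49.3 FPKM in the controls and at 44.4, 50.7 and 44.4 FPKM in the mutants. Mutant replicate 2 was the highest of the 6 libraries and the other mutant libraries the lowest. The log2 difference of Mef2a was -0.055 (standard error 0.086, adjusted p = 0.805 from limma), and -0.024 without the library labelled mutant replicate 3.

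Nkx2-5 and the GATA factors, the first regulators of the network to be expressed in the forming heart, showed the smallest differences together with Mef2a. Nkx2-5 was at 38.5, 33.0 and 43.2 FPKM in the controls and at 30.4, 33.3 and 41.7 FPKM in the mutants, so only mutant replicate 1 was below the control range. Its log2 difference was -0.12 (standard error 0.14, adjusted p = 0.723 from limma), and ranged from -0.25 without mutant replicate 3 to -0.029 without mutant replicate 1. Gata4 was at 64.4, 57.7 and 65.5 FPKM in the controls and at 55.6, 68.9 and 60.7 FPKM in the mutants, so the mutant values spanned the control range. Its log2 difference was -0.021 (standard error 0.10, adjusted p = 0.945 from limma), and -0.012 without the library labelled mutant replicate 3. Gata6 was at 39.4, 38.6 and 43.3 FPKM in the controls and at 39.0, 46.4 and 35.9 FPKM in the mutants, again around the control values. Its log2 difference was -0.0055 (standard error 0.11, adjusted p = 0.990 from limma), while its mean FPKM was 40.4 in both groups. Without the library labelled mutant replicate 3 the difference of Gata6 was positive, at 0.074.

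Because FPKM is scaled by transcript length, levels can be set side by side between genes. In the control hearts Tbx20 was the most abundant of the 10 at a mean of 76.5 FPKM, followed by Gata4 at 62.5, Mef2a at 48.3, Hand2 at 42.0, Gata6 at 40.4 and Nkx2-5 at 38.2 FPKM. Myocd at 26.9, Tbx5 at 25.8, Mef2c at 19.0 and Hand1 at 13.6 FPKM came below. Along this order the control values of neighbours did not overlap between Tbx20 and Gata4, between Gata4 and Mef2a, and between Nkx2-5 and Myocd, and overlapped for all other neighbours. The largest negative differences, those of Myocd, Tbx5, Hand1 and Mef2c, were thus in the 4 regulators of lowest level.

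The mutant libraries were not alike. In mutant replicate 1, 8 of the 10 regulators lay below all control libraries, beside 38.1% of all genes tested in that library. In mutant replicate 2, 5 did, beside 26.3% of all genes, and in mutant replicate 3, 6 did, beside 40.3%. Mutant replicates 1 and 3, with the higher shares over all genes, were those with the higher erythroid share. Averaged over the 10 on the log2 scale and set against the control mean, the regulators were at -0.38, -0.18 and -0.14 in the mutants. The muscle target genes were at -0.37, -0.23 and -0.17 in the same libraries, in the same order as the regulators. The control libraries ranged from -0.080 to 0.053 for the regulators and from -0.11 to 0.084 for the target genes.

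The muscle target list holds 42 genes of the sarcomere, calcium handling, the natriuretic peptides and muscle energy supply, of which 41 were tested. Of these, 23 were lower and 5 higher in the mutants at an unadjusted p under 0.05, beside 9.43% and 5.57% of all genes, and the median difference was -0.31. In 22 target genes all mutant values lay below all control values, and in 3 all lay above, beside 13.0% and 7.74% of all genes. The target list was drawn up with earlier results of these data known, so its excess of lower genes is not an independent result. The calcium release gene Trdn fell, the one target gene past the adjusted line. It was at 50.8, 48.1 and 44.4 FPKM in the controls and at 15.4, 17.6 and 23.6 FPKM in the mutants, a log2 difference of -1.32 (standard error 0.14, adjusted p = 0.0262 from limma). No target gene passed the adjusted line when mutant replicate 1 or any of the control libraries was left out, and 13 were lower at the unadjusted line without mutant replicate 1 and 15 without control replicate 3, where 962 and 1066 of all genes were. The troponin T gene Tnnt2, whose promoter drives the Cre transgene, differed by -0.60 (adjusted p = 0.0952 from limma), and the junctophilin gene Jph2 by -0.59 (adjusted p = 0.112). With the most abundant transcript in place of the sum, the difference was -2.51 for Trdn and -3.79 for Tnnt2, whose unadjusted p was then 0.154. The small muscle protein gene Smpx and the titin cap gene Tcap were both at -0.82 (adjusted p = 0.128 and 0.140 from limma).

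The target genes that were higher encode secreted heart hormones and growth factors, a stress-responsive muscle protein and a respiratory chain subunit. Nppb, a natriuretic peptide gene, was at 95.2, 111 and 91.5 FPKM in the controls and at 337, 384 and 146 FPKM in the mutants, a log2 difference of 1.42 (adjusted p = 0.141 from limma). Bmp10, a growth factor of trabecular muscle, differed by 0.89, Cox6a2, a muscle subunit of cytochrome c oxidase, by 0.81, Nppa by 0.70 and Ankrd1 by 0.58, with adjusted p-values of 0.139 to 0.256 from limma. In mutant replicate 3, Nppa at 781 FPKM and Cox6a2 at 82.0 FPKM lay within the control ranges, of 620.5 to 793 FPKM and of 74.6 to 91.2 FPKM, while Bmp10, Nppb and Ankrd1 did not overlap between the groups. The unadjusted p of Bmp10 and Nppb was under 0.05 in all 17 alternative fits, and that of Nppa, Ankrd1 and Cox6a2 in 13 each. All 3 lost this call without mutant replicate 1 (unadjusted p = 0.0593 to 0.0802) and without mutant replicate 2 (0.0631 to 0.0823), where Ankrd1 was at 0.38. Ankrd1 and Cox6a2 also lost it without control replicate 1 and Nppa and Cox6a2 without control replicate 2, and Nppa and Ankrd1 after quantile normalization. Of the target genes named whatever their values, Nppa was past the unadjusted line as given above, while the cardiac actin gene Actc1 differed by -0.15, the atrial myosin light chain gene Myl7 by -0.23 and the myosin heavy chain gene Myh6 by -0.033, these 3 not past it. Gja5, the connexin gene of atrial and conduction muscle and a known target of Nkx2-5 and Tbx5, was singled out after its values were seen. It was at 28.3, 27.3 and 29.98 FPKM in the controls and at 8.62, 10.5 and 25.6 FPKM in the mutants, with no overlap and mutant replicate 3 near the controls (difference -1.04, unadjusted p = 0.0119, adjusted p = 0.214 from limma). Without the library labelled mutant replicate 3, 12 of the 41 target genes had an adjusted p under 0.05, where 2.04% of all genes did, and 26 were lower and 6 higher at the unadjusted line, where 1169 and 851 of all genes were. The lower ones of the 12 were Trdn, Gja5 (-1.49), Tcap (-1.03), Smpx (-1.01), Casq2, Pln and Tnni1, and the higher ones Nppb (1.85), Cox6a2 (1.20), Bmp10 (1.11), Nppa (0.99) and Ankrd1 (0.82), with adjusted p-values from 0.00031 for Nppb to 0.0415 for Casq2 from limma. Casq2, Pln and Tnni1 are named here because they passed in this fit.

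**Figure D2:**
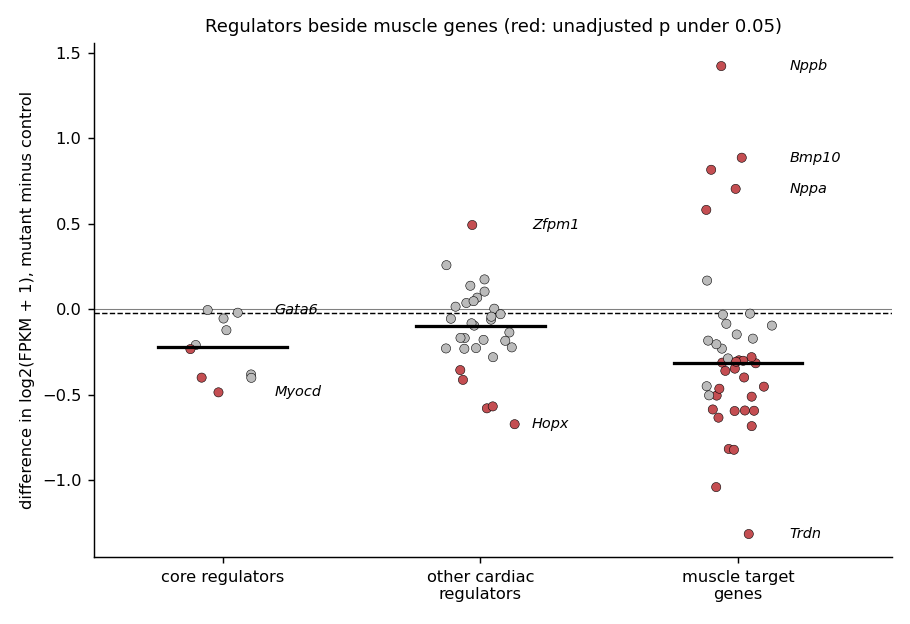
Difference in log2(FPKM + 1), mutant minus control, of the 10 core regulators, 31 other cardiac regulators and 41 muscle target genes, with 1 point per gene, red where the unadjusted limma p is under 0.05. Thick lines are the list medians of -0.22, -0.10 and -0.31 and the dashed line is the median of all genes tested at -0.021. The core regulators span a narrower range than the target genes, but the target list is longer and a longer list tends to span more.

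To ask how the regulators stood against the muscle genes they act on, the mean log2 value of the tested muscle target genes was subtracted in each library. This shifts the median difference of all genes from -0.021 to 0.23, so differences on this scale are read against that value. The median of the 10 regulators was then 0.032, below the median of all genes, and that of the target list -0.059. The subtracted mean includes the target genes that were higher, such as Nppb and Bmp10. Positions against it therefore depend on the make-up of the list. Myocd was still lower, by -0.23 (unadjusted p = 0.0418 from limma), where 1.13% of all genes were lower at this line. Gata4 was higher, by 0.23 (unadjusted p = 0.0469), the same as the median of all genes, where 32.9% of all genes were higher. Gata6 at 0.25 and Mef2a at 0.20 lay close to it. Hand2 at 0.020 and Tbx20 at 0.044 stood near the target mean, and Tbx5 at -0.15, Hand1 at -0.15 and Mef2c at -0.13 below it. None of the 10 passed the adjusted line on this scale, which 1.01% of all genes did.

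**Figure D3:**
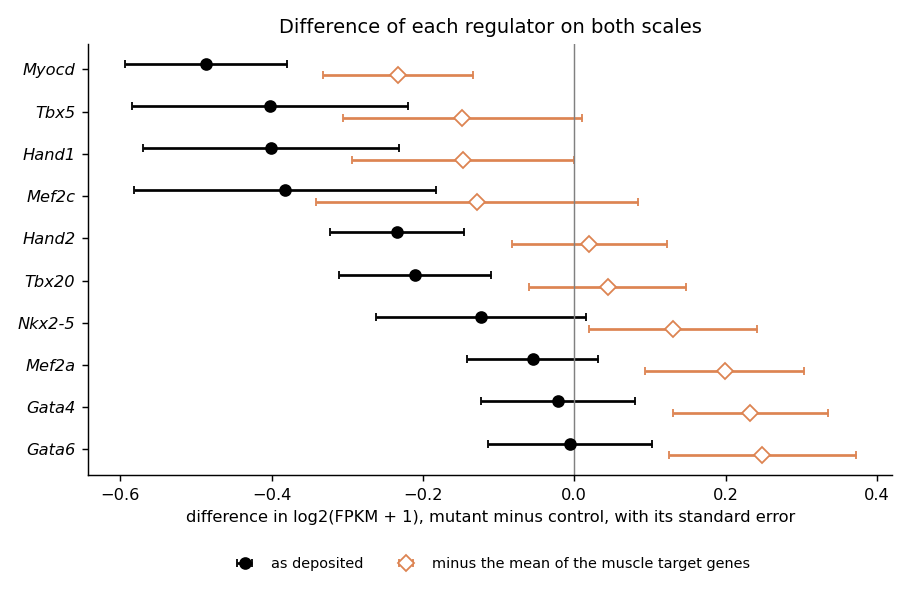
Difference of each regulator between mutant and control hearts in log2(FPKM + 1), with its standard error from limma, as deposited (filled circles) and after subtraction of the mean of the muscle target genes in each library (open diamonds). Myocd, Tbx5, Hand1 and Mef2c lie below 0 on both scales, while the other 6 regulators lie above 0 on the second, on which the median of all genes is 0.23.

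Of 32 other regulators of heart development, 31 were tested, and 5 were lower and 1 higher in the mutants at an unadjusted p under 0.05, beside 9.43% and 5.57% of all genes, with a median difference of -0.10. Hopx, a homeodomain protein that does not bind DNA and lies downstream of Nkx2-5, was at 62.3, 58.6 and 71.4 FPKM in the controls and at 40.3, 43.2 and 35.9 FPKM in the mutants. The groups lay far apart, with a difference of -0.67 (standard error 0.11, adjusted p = 0.0643 from limma). Smyd1, a muscle histone methyltransferase acting upstream of Hand2, differed by -0.57 (adjusted p = 0.153), and Irx4 and Hey2, factors of ventricular identity, by -0.58 and -0.41 (adjusted p = 0.185 and 0.170 from limma). Mkl2, a coactivator of serum response factor related to Myocd, differed by -0.36 (adjusted p = 0.260 from limma), with an unadjusted p under 0.05 in 10 of 17 alternative fits, and lost that call without control replicate 1, control replicate 3, mutant replicate 1 or mutant replicate 3. Without the library labelled mutant replicate 3, 6 of this list were lower and 3 higher at the unadjusted line. Of all 13260 genes, 1169 were lower and 851 higher in that fit. Hopx, Smyd1 and Irx4 had adjusted p-values of 0.0382, 0.0237 and 0.0202 from limma there, past a line that 2.04% of all genes passed.

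Zfpm1, a cofactor of GATA proteins in blood and heart, was the one higher gene of this list, at 34.6, 38.8 and 32.9 FPKM in the controls and at 50.7, 40.2 and 61.8 FPKM in the mutants (difference 0.49, adjusted p = 0.205 from limma). The mutant libraries with the highest Zfpm1, replicates 1 and 3, were those with the highest erythroid share. Mutant replicate 2, with the lowest erythroid share of the 6 libraries at 10.8%, was above every control library too. With the erythroid level as a covariate the difference was 0.27 and its unadjusted p 0.0767 from limma. The part of blood cells in the Zfpm1 value was not tested.

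The transcript values were looked at after the gene values, and the tests on them were chosen after they were seen. The 10 regulators are listed as 55 transcripts, of which 10 are at 0 in every library and 23 passed the filter. Of these, 6 had an unadjusted p under 0.05, beside 10.2% of the 20370 transcripts tested, with 5 lower, beside 6.22%, and 1 higher, beside 4.02%. How the authors' tools divide fragments between transcripts that share nearly all of their sequence sets these values, so they are less certain than the gene sums. None of the 23 had an adjusted p under 0.05, as 0.0344% of all transcripts tested did.

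Gata4, whose sum differed little between the groups, held a transcript that was higher in every mutant library. Gata4-201, with the 3 extra bases shown above, was at 9.63, 9.99 and 9.74 FPKM in the controls and at 15.0, 15.8 and 14.6 FPKM in the mutants. The values were tight within each group and lay well apart, with a log2 difference of 0.58 (standard error 0.074), an unadjusted p of 0.00022 and an adjusted p of 0.157 from limma over transcripts. Gata4-202, the more abundant, was at 39.9, 34.6 and 42.5 FPKM in the controls and at 28.2, 35.5 and 31.4 FPKM in the mutants. Mutant replicate 2 lay within the control range, and the log2 difference was -0.29 (standard error 0.12, unadjusted p = 0.0462, adjusted p = 0.479 from limma). Over 12 alternative fits the unadjusted p was under 0.05 in all 12 for Gata4-201 and in 5 for Gata4-202, whose call was lost without control replicate 1 or 3 and without mutant replicate 1 or 3, and whose difference was -0.16 with the erythroid covariate.

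The ratio of Gata4-201 to Gata4-202 was 0.241, 0.289 and 0.229 in the controls and 0.531, 0.444 and 0.467 in the mutants. All mutant ratios, that of the library labelled mutant replicate 3 included, were above all control ratios, at 0.481 ± 0.0451 (SD, n = 3) against 0.253 ± 0.0313 (SD, n = 3). This pair was picked after its values were seen, so the ratio is given without a test. Gata4-201 made up 15.0%, 17.3% and 14.9% of the summed Gata4 FPKM in the controls and 26.9%, 22.9% and 24.1% in the mutants. Of 20 shares of the regulators' transcripts, which are not independent within a gene, 6 did not overlap between the groups, beside 11.9% of such shares over all genes with more than 1 transcript. The table holds no reads, so whether the fragments that set the 2 values apart lie at the 3 bases or at the 5′ start cannot be told from it.

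**Figure D4:**
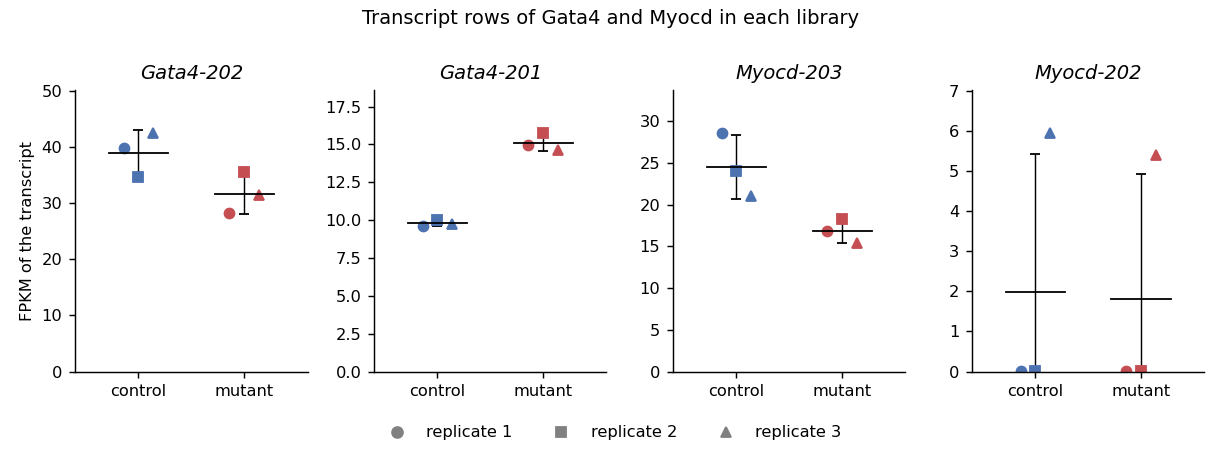
FPKM of the transcripts Gata4-202, Gata4-201, Myocd-203 and Myocd-202 in each library, with the mean (line) and SD (error bar, n = 3) of each group; each panel has its own axis from 0. Gata4-201 is near 10 FPKM in the controls and near 15 FPKM in the mutants, and Myocd-202 is above 1 FPKM only in replicate 3 of both groups.

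The Myocd difference was carried by Myocd-203, the transcript with exon 11, at 28.6, 24.0 and 21.0 FPKM in the controls and at 16.8, 18.3 and 15.4 FPKM in the mutants. All mutant values were below all control values (log2 difference -0.51, standard error 0.13, unadjusted p = 0.0076, adjusted p = 0.376 from limma). Myocd-202, which lacks exon 11, was at 5.95 FPKM in control replicate 3 and 5.40 FPKM in mutant replicate 3, and at 0.0244 FPKM or less in the other 4 libraries. It thus followed the replicate number and not the genotype, and did not pass the filter. Which litter or batch a replicate number stands for is not given in the sources used here.

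Each T-box gene is listed as 3 transcripts, of which only Tbx5-202 was past the unadjusted line. It was at 5.98, 3.75 and 3.44 FPKM in the controls and at 2.27, 2.36 and 2.37 FPKM in the mutants, with no overlap (log2 difference -0.66, unadjusted p = 0.0144, adjusted p = 0.414 from limma), and its unadjusted p was under 0.05 in 11 of 12 alternative fits. Tbx20-202 was at 7.19, 5.32 and 4.95 FPKM in the controls and at 0.488, 4.10 and 3.26 FPKM in the mutants, with no overlap but an unadjusted p of 0.0622. Tbx5-203 and Tbx20-203 did not pass the filter and overlapped between the groups, and Tbx20-203 was above 0 only in control replicate 3, at 2.59 FPKM, and in mutant replicate 1, at 3.69 FPKM. Mef2c is listed as 27 transcripts, of which 8 are at 0 throughout and 6 were tested, and its expression was divided differently among them from library to library. Mef2c-217, for example, made up 35.8% of the Mef2c sum in control replicate 2 and 35.3% in mutant replicate 2 but 0% in control replicate 3. Mef2c-204 differed by -0.80 (unadjusted p = 0.0438, adjusted p = 0.474 from limma), with an unadjusted p under 0.05 in 4 of 12 alternative fits and in only 1 of the 6 that left out a library, that without control replicate 3. Nkx2-5, Gata6 and Hand2 are listed as 1 transcript each.

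Over the 6 libraries, in which group and erythroid share vary together with the genes, the regulators most alike in log2 value were Gata4 and Mef2a (Pearson r = 0.896), followed by Tbx5 and Myocd (r = 0.833) and Nkx2-5 and Hand1 (r = 0.831). Gata6 and Mef2c were the least alike (r = -0.583). The gene outside the list most like each regulator was Hist2h2ab for Nkx2-5 (r = 0.997), Nacc2 for Gata4 (r = 0.994), Rbms3 for Gata6 (r = 0.997), Chst2 for Mef2a (r = 0.990) and Fanca for Mef2c (r = 0.986). It was Ino80d for Tbx5 (r = 0.988), Klhl4 for Tbx20 (r = 0.992), Prkaca for Hand1 (r = 0.995), Nudt16l1 for Hand2 (r = 0.990) and Cmc2 for Myocd (r = 0.998). Between 18 and 152 genes correlated with a regulator above 0.95 over these 6 points, the most with Myocd, so a single nearest gene carries little weight.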

How the data were processed

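RNA of pooled hearts was depleted of ribosomal RNA and sequenced from strand-specific libraries, with 3 control and 3 mutant libraries grouped by the sample labels. The authors deposited 1 table of FPKM for 60776 transcripts. The submitters' processing notes name Bowtie2 2.2.8, HISAT2, StringTie 1.3.1, Cuffdiff 2.1.1 and the build mm9, without saying which step made the table. Annotation release and read numbers are not given in the sources used here. All 55 transcripts of the 10 regulators were matched by identifier to GENCODE M21 on GRCm38, from which sequences were read; the table gives no positions.

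Transcripts were summed per gene, genes that reached 1 FPKM in 3 or more of the 6 libraries were kept, 1 was added, and log2 values were fitted with limma 3.58.1 (R 4.3.3, lmFit and eBayes with trend, two-sided) after a check on simulated data. The named genes are the 10 regulators, Mrps5, Hand2os1, the 5 target genes with the smallest p in each direction plus Nppa, Actc1, Myh6 and Myl7, the other regulators with an unadjusted p under 0.05, and for each regulator the gene of highest correlation. The regulators and all gene lists were chosen with earlier results of these data known. Labels do not say that replicates are litters, so p-values measure the spread between pools. Mutants and controls were littermates, but libraries with the same replicate number are not stated to share litters, and their deviations correlated at 0.217, 0.111 and 0.0901, so the numbers were not taken to pair the libraries. Alternatives were a pseudocount of 0.1, no filter, a mean FPKM of at least 5, rescaling without erythroid and mitochondrial genes, quantile normalization, centring on the target genes, the most abundant transcript, no trend, a replicate block alone and with rescaling, each library left out, and, added after the data were seen, an erythroid covariate.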

Additional observations from a re-analysis of the deposited data

How the results depend on the processing

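Across the 17 alternatives Myocd kept its direction and an unadjusted p under 0.05. The lower count at an unadjusted p under 0.05 was 3 regulators as reported, 5 after rescaling without erythroid and mitochondrial genes, 1 with the erythroid covariate and 1 after centring on the target genes, where 1519, 692 and 150 of the 13260 genes were lower in place of 1251. Centring also gave 1 higher regulator at that line, 1 lower and 2 higher without overlap, and a median of 0.032. For the target genes centring gave 8 lower at an unadjusted p under 0.05, 7 lower and 6 higher without overlap, a median of -0.059 and 2 at an adjusted p under 0.05. That last count was 0 with no filter, no trend, the block, the block with rescaling or the erythroid covariate, and quantile normalization gave 3 higher at an unadjusted p under 0.05. For the other regulators centring gave 3 lower and 5 higher at that line, where 1.13% of all genes were lower and 32.9% higher, 2 lower and 4 higher without overlap, where 172 and 4796 of the 13260 genes were, and a median of 0.16 beside 0.23 for all genes, and no filter gave 2 higher by either measure. Beyond the subtraction itself in the centred fit, the cause of these shifts was not tested.

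Centring turned the sign of Nkx2-5 to 0.13, Gata4 to 0.23, Gata6 to 0.25, Mef2a to 0.20, Tbx20 to 0.044, Hand2 to 0.020, Myl7 to 0.023, Actc1 to 0.11 and Myh6 to 0.22. The erythroid covariate turned Gata4 to 0.11, Gata6 to 0.14, Mef2a to 0.038 and Myh6 to 0.13, and quantile normalization turned Actc1 to 0.056. With 1 library left out in turn, the differences ranged from -0.10 to 0.050 for Gata4, from -0.11 to 0.074 for Gata6, from -0.19 to 0.21 for Myh6, from -0.25 to -0.029 for Nkx2-5, from -0.12 to -0.024 for Mef2a, from -0.62 to -0.23 for Mef2c, from -0.58 to -0.27 for Hand1, from -0.22 to -0.038 for Actc1, from -0.30 to -0.13 for Myl7, from 0.38 to 0.82 for Ankrd1 and from -0.56 to -0.42 for Myocd.

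With 1 library left out in turn, 1 to 4 regulators were lower at an unadjusted p under 0.05, 0 to 1 passed the adjusted line and 3 to 5 were lower without overlap, with medians of -0.27 to -0.17. For the target genes, 13 to 26 were lower and 2 to 6 higher at an unadjusted p under 0.05, 0 to 12 passed the adjusted line, 22 to 30 were lower and 3 to 6 higher without overlap, and medians were -0.39 to -0.24. For the other regulators, 4 to 6 were lower and 1 to 3 higher, 0 to 3 passed the adjusted line, 6 to 12 were lower and 1 to 4 higher without overlap, and medians were -0.13 to -0.048. Over all 13260 genes in these fits, 776 to 1295 were lower and 440 to 872 higher at the unadjusted line, 5 to 270 passed the adjusted line, and 2210 to 3026 were lower and 1373 to 1979 higher without overlap, in place of 1728 and 1026. The 12 other regulators came without mutant replicate 2, as did the 3026 genes. The higher count of target genes was 3 without control replicate 1 or 2 and 2 without mutant replicate 1 or 2. The counts past the adjusted line were highest without the library labelled mutant replicate 3, whose Mrps5 value lay in the control range.

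With the replicate block, 3 regulators were lower at an unadjusted p under 0.05 and 0 passed the adjusted line, and 25 target genes were lower, where 1458 of all genes were, in place of 1251. Every library correlated best with the library of its own number in the other group, a hint from the data and not from the design. The unknown depth leaves the counting error of the low transcripts unstated, and 3 libraries a group cannot give an exact permutation p under 0.1.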

Other observations

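Mef2b, a MEF2 factor in the list of other regulators, reached an FPKM of 1 in fewer than 3 libraries. It was therefore tested only in the fit with no filter, and is given here after its values were seen. It was at 0.0198, 0.0436 and 0.0319 FPKM in the controls (replicates 1, 2 and 3) and at 1.93, 1.28 and 0.403 FPKM in the mutants. All mutant values were above all control values, and the library labelled mutant replicate 3 had the lowest of them. In the fit with no filter its log2 difference was 1.03. It was 1 of the 2 genes of its list that were higher without overlap there, beside 1361 of 22153 genes.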
